A study of Mus musculus with 6 samples.

Results

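Transcripts of 31 genes that mark the intestinal epithelium were followed in cultures of eosinophils taken from the small intestine of mice. The set is a list of known marker genes, chosen by name: 14 are found across the epithelium, 8 mark absorptive enterocytes, 4 mark mucus-secreting goblet cells, 2 mark Paneth cells, 2 encode antimicrobial lectins shared by enterocytes and Paneth cells, and Olfm4 marks the stem cells at the crypt base. All 31 had a row in the deposited tables, among 23283 gene symbols. The starting cells were small intestinal lamina propria eosinophils of wild-type BALB/c mice, and every culture lasted 4 hours. Of 6 cultures, 3 were left untreated and 3 received GM-CSF at 10 ng/ml. GM-CSF is a cytokine that eosinophils bind through a receptor containing the beta chain Csf2rb. Neither the isolation method nor the purity of the cells was stated in the labels or the design text. The design text speaks of triplicate cultures and names no separate mice, so every p-value reflects the scatter among these cultures alone, which may be technical.

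The intestinal epithelium is a single sheet of cells joined by cadherins, claudins and desmosomes and stiffened by keratin filaments. It lies directly on the lamina propria, where intestinal eosinophils live. Enterocytes take up nutrients and carry lipid-binding proteins and brush border enzymes, goblet cells release mucins and trefoil factor, and Paneth cells release lysozyme and defensins at the base of the crypts. The transcription factors Cdx1 and Cdx2 set the intestinal character of the sheet.

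Levels are in FPKM, a fragment count corrected for transcript length and library size, so they can be compared between genes. The libraries rested on 0.820 to 1.32 gigabases of mapped sequence. Of the eosinophil markers, Ccr3 (the eotaxin receptor) averaged 289 FPKM in untreated libraries, and the 13 listed genes summed to between 1698 and 1902 FPKM. The granule genes Epx and Prg2 were lower, at means of 5.45 and 8.89 FPKM over all libraries, and the granule genes Prg3, Ear1, Ear2 and Ear6 averaged under 1 FPKM, from 0.224 to 0.604. All 31 epithelial markers summed to 0.0702% of all FPKM in untreated and 0.0818% in GM-CSF libraries. Cdh17 and Olfm4, which rose, made up much of this. Without them, a choice made after their values were seen, the other 29 summed to 0.0282% and 0.0214%.

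Promoter windows are shown for 4 genes, because they stand for the 3 behaviours seen below: Olfm4 rose, Epcam did not pass the test, and the neighbouring keratin genes Krt8 and Krt18 fell together. Each window runs from 250 bases before to 50 bases after the start of the gene, 5′ to 3′ on the gene's strand, from RefSeq on GRCm38.p6, the patched release of the mm10 build that the submitters' processing notes name. The windows are chr14:80000052-80000351 (plus strand) for Olfm4, chr17:87635729-87636028 (plus) for Epcam, chr15:102004293-102004592 (minus) for Krt8 and chr15:102027966-102028265 (plus) for Krt18. Capitals mark TTTATG or its reverse complement CATAAA, a core of the sites that CDX factors bind.
Olfm4: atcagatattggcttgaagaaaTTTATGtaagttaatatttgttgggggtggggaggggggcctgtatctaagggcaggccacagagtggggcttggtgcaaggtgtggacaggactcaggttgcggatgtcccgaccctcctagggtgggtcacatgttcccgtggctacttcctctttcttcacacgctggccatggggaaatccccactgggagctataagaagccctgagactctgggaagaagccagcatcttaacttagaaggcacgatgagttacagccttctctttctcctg
Epcam: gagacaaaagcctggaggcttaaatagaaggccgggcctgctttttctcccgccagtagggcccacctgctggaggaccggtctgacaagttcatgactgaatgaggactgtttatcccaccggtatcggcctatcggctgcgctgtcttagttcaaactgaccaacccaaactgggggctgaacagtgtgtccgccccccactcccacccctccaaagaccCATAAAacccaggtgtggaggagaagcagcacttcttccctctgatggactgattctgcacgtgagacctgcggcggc
Krt8: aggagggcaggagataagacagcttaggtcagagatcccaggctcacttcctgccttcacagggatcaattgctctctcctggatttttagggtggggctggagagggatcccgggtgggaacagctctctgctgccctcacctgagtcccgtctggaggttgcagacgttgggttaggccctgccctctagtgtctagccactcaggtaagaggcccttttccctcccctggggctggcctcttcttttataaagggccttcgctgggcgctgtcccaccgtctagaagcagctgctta
Krt18: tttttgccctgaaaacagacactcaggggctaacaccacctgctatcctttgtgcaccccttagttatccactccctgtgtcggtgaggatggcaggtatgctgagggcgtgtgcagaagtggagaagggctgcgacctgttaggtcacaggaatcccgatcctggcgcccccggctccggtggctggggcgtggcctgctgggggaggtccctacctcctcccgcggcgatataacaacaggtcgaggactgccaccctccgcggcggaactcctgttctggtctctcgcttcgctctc

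The Olfm4 match begins 228 bases and the Epcam match 28 bases before the start, and the windows of Krt8 and Krt18 hold none. RefSeq windows were found for 25 of the 31 markers, and Cdh17 and Krt19 were not among them. TTTATG on either strand lay in the windows of 7 markers (Agr2, Epcam, Fabp1, Muc13, Olfm4, Reg3b and Sis), which is 25.9% of 27 windows against 11.9% of all 32851 windows. The palindromic motif TTCNNNGAA, which STAT factors such as the STAT5 proteins downstream of GM-CSF bind, lay in the windows of 3 markers (Cldn7, Muc13 and Reg3b), or 11.1% against 8.30%. These matches are letters in a window and not measured binding, and the motifs cannot overlap, since their letters conflict in every alignment.

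GM-CSF split the markers. Cdh17 and Olfm4, the most abundant pair in the treated cultures, rose. The keratin genes Krt8, Krt18 and Krt19, the claudin genes Cldn3 and Cldn7, the galectin gene Lgals4, the Paneth lysozyme gene Lyz1 and the lectin gene Reg3g fell. Epcam and Spint2, at levels between 10.9 and 18.0 FPKM, had overlapping groups and did not pass the test. The test was limma on log2(FPKM + 1) over every gene whose mean over the 6 libraries reached 1 FPKM, with p-values adjusted by Benjamini-Hochberg over all tested genes and called under 0.05, so fold changes on the log2 scale understate those of low genes. Of the 31 markers, 22 reached that mean and were tested: 2 rose, 8 fell and 12 did not pass. Over all 10106 tested genes, 21.9% changed, 7.68% upward and 14.2% downward, against 9.09% and 36.4% of the tested markers. The balance of all calls depended on scaling: 776 up and 1436 down as deposited became 1008 and 1039 with median-of-ratios factors, under which 2 markers rose and 7 fell. Groups did not overlap for 12 tested markers, 10 of them lower with GM-CSF, where 39.2% of all tested genes did not overlap and 26.0% were lower without overlap. The median log2 fold change of the tested markers was -0.47, beside -0.05 for all tested genes. In a bulk culture, fewer cells of a type and less RNA per cell cannot be told apart.

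**Figure D1:**
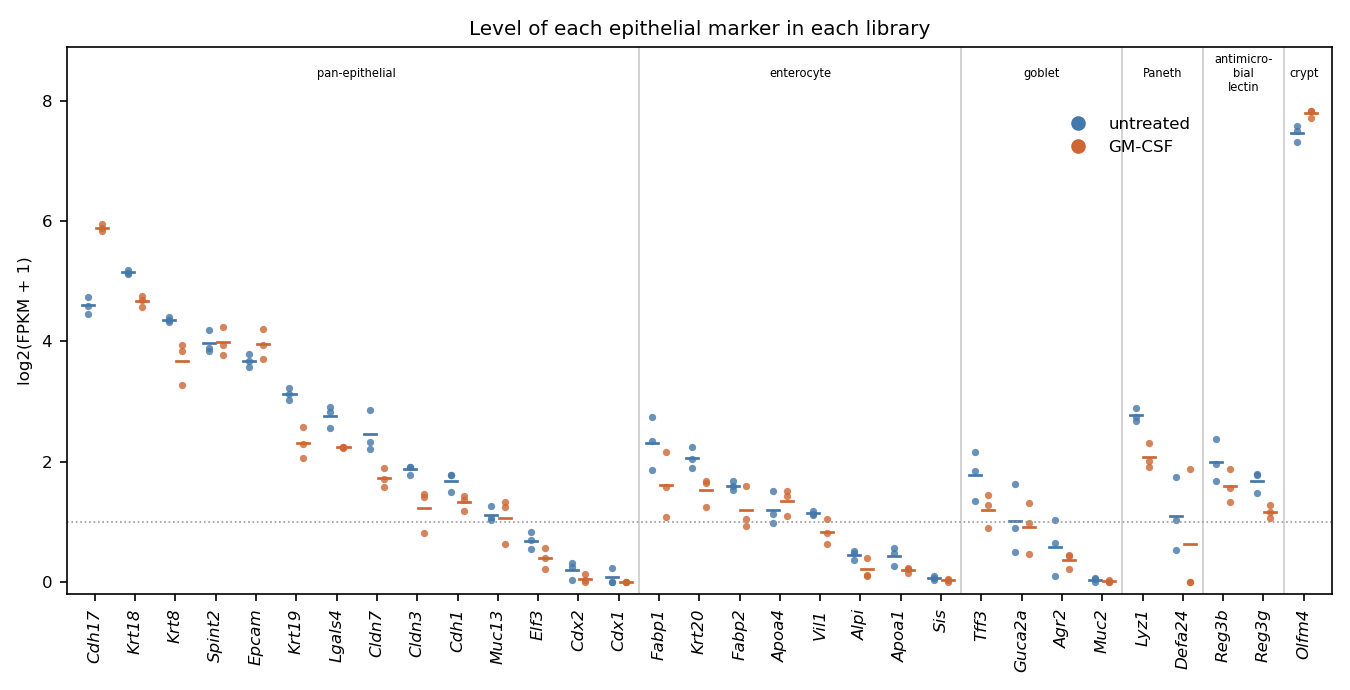
Level of each of the 31 markers as log2(FPKM + 1) in the 3 untreated (blue) and 3 GM-CSF (orange) libraries, grouped by class. Points are libraries, short bars are group means and the dotted line is 1 FPKM. Olfm4 lies highest and rises with Cdh17, the keratins lie lower with GM-CSF, and most enterocyte and goblet markers lie near or under the dotted line.

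Among adhesion genes the largest change was the rise of Cdh17, which encodes liver-intestine cadherin, a calcium-dependent adhesion protein of the intestinal epithelium that is also known from mouse B lineage cells. Cdh17 (chromosome 4, 11758157 to 11817905, GRCm38) measured 21.0, 23.1 and 25.9 FPKM in untreated replicates 1 to 3 and 58.3, 56.4 and 60.8 FPKM in GM-CSF replicates 1 to 3. Every treated culture was far above the highest untreated one, and replicates of a group lay close together. The group means were 23.3 ± 2.43 and 58.5 ± 2.20 FPKM (SD, n = 3 each), a 2.51-fold rise (log2 difference 1.29 with an SE of 0.08, limma adjusted p = 0.000107). Cdh17 passed under all 18 alternatives tried. Cdx2, the textbook activator of Cdh17 in the gut, was between 0 and 0.243 FPKM in the same libraries, and its neighbour in function Cdx1 was listed at 0 in 5 of 6. The cause of the rise of Cdh17 was not tested.

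Epcam, the epithelial adhesion molecule used to sort epithelial cells (chromosome 17, 87635979 to 87651127), measured 10.9, 11.8 and 12.8 FPKM without and 14.3, 17.4 and 12.1 FPKM with GM-CSF. The highest untreated value lay above the lowest treated one, so the groups overlapped (log2 difference 0.27 with an SE of 0.13, limma adjusted p = 0.198). Cdh1, which encodes E-cadherin, the main cadherin of epithelial junctions, was low, with 2.44, 1.82 and 2.42 FPKM without and 1.26, 1.58 and 1.69 FPKM with GM-CSF. These groups did not overlap, yet the difference did not pass (log2 difference -0.36 with an SE of 0.12, limma adjusted p = 0.0832). Cdh17 therefore stood at 1.93 to 2.02 times the FPKM of Epcam without and at 3.23 to 5.04 times with GM-CSF (p = 0.1 by an exact permutation test, two-sided, where 3 against 3 can give no smaller p). This p was fixed beforehand, since the ranges of both genes left the ratios no way to overlap. The ratio of Cdh17 to Epcam therefore adds nothing to the separate results of these genes.

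Claudins seal the tight junctions between epithelial cells. Cldn7 measured 4.04, 3.62 and 6.24 FPKM without and 1.97, 2.28 and 2.73 FPKM with GM-CSF, without overlap (log2 difference -0.74 with an SE of 0.18, limma adjusted p = 0.0316). The difference was -0.45 and missed the threshold when only the more abundant of its 2 transcripts was used (adjusted p = 0.191). It also missed the threshold at a like size of -0.80 without untreated replicate 1 (adjusted p = 0.0580), -0.66 without treated replicate 1 (0.0941) and -0.73 without treated replicate 2 (0.0817). With no filter on low values the difference of Cldn7 missed the threshold as well (adjusted p = 0.0722). Cldn3 measured 2.78, 2.75 and 2.44 FPKM without and 0.763, 1.74 and 1.66 FPKM with GM-CSF. GM-CSF replicate 1 was the low one, and the call (log2 difference -0.64 with an SE of 0.18, limma adjusted p = 0.0468) lay at the threshold and ended under 13 of 17 alternatives, among them without any single untreated library (adjusted p from 0.0899 to 0.125) and without GM-CSF replicate 3 (0.0616).

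The keratin genes Krt8, Krt18 and Krt19 fell, and Krt20 just missed the threshold. Type II keratin 8 pairs with type I keratins 18 or 19 in the filaments of simple epithelia, and Krt8 and Krt18 lie 23.9 kb apart on chromosome 15 (Krt8 at 101996711 to 102004342, Krt18 at 102028216 to 102032026). Krt18, the most abundant marker after Olfm4 in untreated cultures, measured 34.2, 33.8 and 35.4 FPKM without and 22.9, 24.9 and 26.1 FPKM with GM-CSF. All treated cultures lay well below all untreated ones (log2 difference -0.47 with an SE of 0.06, limma adjusted p = 0.00200). Krt8 measured 19.4, 19.0 and 20.1 FPKM without and 8.65, 14.3 and 13.3 FPKM with GM-CSF, where replicate 1 was the low culture. The groups did not overlap (log2 difference -0.68 with an SE of 0.17, limma adjusted p = 0.0313), but the call ended without any single untreated library (adjusted p from 0.0790 to 0.0884). The ratio of Krt8 to Krt18 was 0.568, 0.563 and 0.567 in untreated replicates and 0.377, 0.574 and 0.511 in GM-CSF replicates (p = 0.4 by the same exact permutation test).

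Krt19 (chromosome 11, 100140810 to 100145926) had the largest fall of the tested markers on the log2 scale. It measured 7.13, 7.76 and 8.35 FPKM without and 3.18, 3.91 and 4.997 FPKM with GM-CSF (log2 difference -0.81 with an SE of 0.14, limma adjusted p = 0.00757). No treated culture reached the lowest untreated one, and Krt18 and Krt19 passed under all 18 alternatives. Krt20, the keratin of mature enterocytes at the villus tip, measured 3.11, 3.72 and 2.71 FPKM without and 1.36, 2.13 and 2.21 FPKM with GM-CSF. Its groups did not overlap either, and the difference just missed the threshold (log2 difference -0.53 with an SE of 0.15, limma adjusted p = 0.0517). The ratio of Cdh17 to Krt18 was 0.615 to 0.730 without and 2.27 to 2.54 with GM-CSF (p = 0.1 by the same exact permutation test). This p is the smallest possible and was fixed beforehand, since both genes separated the groups in opposite directions. The ratio therefore adds nothing to the separate calls of Cdh17 and Krt18.

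**Figure D2:**
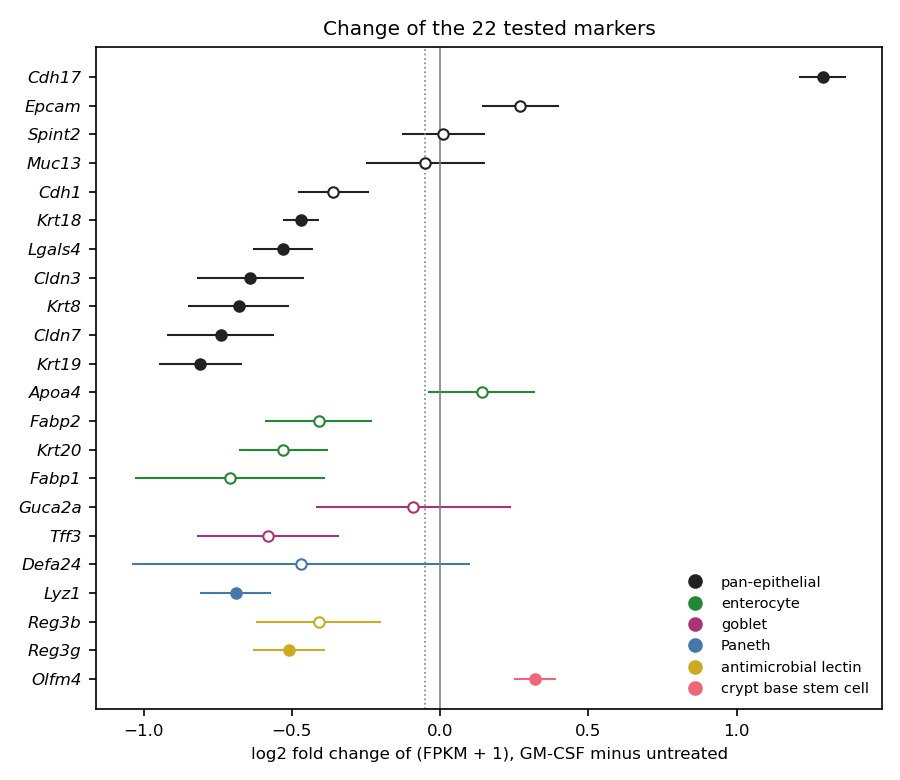
Log2 fold change of FPKM + 1 (GM-CSF minus untreated) of the 22 tested markers with its standard error, coloured by class. Filled points passed the threshold and the dotted line is the median of all tested genes, -0.05. Cdh17 (1.29) and Olfm4 (0.32) lie to the right and 8 filled points lie between -0.81 and -0.47.

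The remaining genes of the epithelium as a whole ranged from steady to barely detected. Lgals4, a galectin of intestinal epithelial cells, fell from 6.10, 4.90 and 6.52 FPKM to 3.72, 3.75 and 3.68 FPKM (log2 difference -0.53 with an SE of 0.10, limma adjusted p = 0.0116). The treated cultures were nearly identical, and the call held under all 17 alternatives in which the gene was tested. Spint2, an inhibitor of membrane serine proteases, measured 13.3, 17.3 and 13.8 FPKM without and 14.4, 18.0 and 12.7 FPKM with GM-CSF, the same range in both groups (log2 difference 0.01 with an SE of 0.14, limma adjusted p = 0.966). Muc13, a membrane mucin, measured 1.40, 1.04 and 1.08 FPKM without and 0.548, 1.4998 and 1.38 FPKM with GM-CSF, with full overlap (log2 difference -0.05, limma adjusted p = 0.903). The transcription factor gene Elf3 stayed under 1 FPKM in every library, with means of 0.614 and 0.319 FPKM, and Cdx2 and Cdx1 were lower still (untreated means 0.151 and 0.0557 FPKM).

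Olfm4 stood apart by its level. It encodes a secreted olfactomedin family glycoprotein that marks crypt base stem cells and is also a granule protein of a subset of neutrophils. Olfm4 (chromosome 14, 80000302 to 80023141) measured 190.9, 159.4 and 180.1 FPKM without and 226.9, 209.8 and 226.6 FPKM with GM-CSF. The groups did not overlap, and the means of 176.8 ± 16.0 and 221.1 ± 9.80 FPKM (SD, n = 3 each) differed 1.25-fold (log2 difference 0.32 with an SE of 0.07, limma adjusted p = 0.0223). The rise missed the threshold without untreated replicate 3 (adjusted p = 0.0524) and without treated replicate 1 (0.0722) or 3 (0.0673). Lgr5, another stem cell gene, averaged 0.495 FPKM in untreated and 0.446 FPKM in GM-CSF libraries. Of the neutrophil list, Retnlg averaged 1344 FPKM without and 998.6 FPKM with GM-CSF, S100a9 48.2 and 36.9 FPKM, and S100a8 15.1 and 8.48 FPKM. Among its granule genes, Mmp8 averaged 11.7 and 10.4 FPKM and Ltf 0.745 and 0.931 FPKM, and Camp was listed at 0 in all 6 libraries. The cells that held the Olfm4 RNA were not identified here.

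Enterocyte markers were scarce. The 8 genes summed to 10.4, 13.6 and 13.96 FPKM without and 5.28, 10.1 and 8.91 FPKM with GM-CSF, less in any library than Krt18 alone. The treated libraries lay below all untreated ones, narrowly so for GM-CSF replicate 2. Only 4 of the 8 enterocyte genes reached the filter and were tested, and none of them passed. Fabp1, the liver-type fatty acid binding protein gene of absorptive cells, measured 2.65, 4.08 and 5.70 FPKM without and 1.12, 3.47 and 1.97 FPKM with GM-CSF (log2 difference -0.71 with an SE of 0.32, limma adjusted p = 0.171). Fabp2, the intestinal-type gene, measured 2.01, 1.89 and 2.21 FPKM without and 0.901, 1.07 and 2.02 FPKM with GM-CSF (log2 difference -0.41 with an SE of 0.18, limma adjusted p = 0.162). In both genes 1 treated culture lay within the untreated range. Without GM-CSF replicate 3 the difference of Fabp2 passed (adjusted p = 0.0174).

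The apolipoprotein gene Apoa4, induced by dietary fat, was the enterocyte marker with a higher treated mean. It measured 0.969, 1.84 and 1.18 FPKM without and 1.13, 1.86 and 1.68 FPKM with GM-CSF, with overlapping groups (log2 difference 0.14 with an SE of 0.18, limma adjusted p = 0.638). Apoa1, which lies 10.4 kb from Apoa4 on chromosome 9, averaged 0.356 and 0.143 FPKM. Vil1, the gene of the brush border actin-bundling protein villin, just missed the filter with a mean of 0.997 FPKM, beside Guca2a just inside at 1.03. Its libraries did not overlap, at 1.20, 1.15 and 1.27 without and 0.541, 1.07 and 0.753 FPKM with GM-CSF, and with a filter of 0.1 FPKM its log2 fold change was -0.31 (limma adjusted p = 0.133). The brush border enzymes alkaline phosphatase (Alpi, 0.370 and 0.159 FPKM) and sucrase-isomaltase (Sis, 0.0449 and 0.0183 FPKM) were lower still.

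Goblet and Paneth markers were low, from Muc2, which was barely detected, to Lyz1. Muc2, the gel-forming mucin of goblet cells, was at most 0.0411 FPKM and was listed at 0 in 3 libraries, and no library put more than 260 mapped nt on it. The trefoil factor gene Tff3 measured 3.45, 2.60 and 1.54 FPKM without and 1.42, 0.851 and 1.72 FPKM with GM-CSF (log2 difference -0.58 with an SE of 0.24, limma adjusted p = 0.139). Its groups overlapped through untreated replicate 3, without which the difference passed (adjusted p = 0.0477). Guca2a, which encodes guanylin, ranged from 0.380 to 2.09 FPKM over the 6 libraries (log2 difference -0.09, limma adjusted p = 0.891), and Agr2, a disulfide isomerase needed for mucin folding, averaged 0.554 and 0.287 FPKM. The 4 goblet genes summed to 5.38, 3.08 and 4.22 FPKM without and 3.26, 1.57 and 2.88 FPKM with GM-CSF, with overlap.

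Lyz1, the Paneth cell lysozyme gene (chromosome 10, 117287795 to 117292868), fell from 5.43, 5.69 and 6.43 FPKM to 2.76, 3.02 and 3.99 FPKM (log2 difference -0.69 with an SE of 0.12, limma adjusted p = 0.00882). The groups did not overlap, and the call held under all 17 alternatives in which the gene was tested. Its close relative Lyz2, the lysozyme gene of macrophages and other myeloid cells, lies 5.52 kb away and was the more abundant gene in every library. Lyz2 measured 17.8, 15.4 and 19.7 FPKM without and 14.7, 12.6 and 11.4 FPKM with GM-CSF (log2 difference -0.42 with an SE of 0.12, limma adjusted p = 0.0446). No source states how reads matching both lysozyme genes were shared out, so the level of Lyz1 is uncertain. The ratio of Lyz1 to Lyz2 was 0.305, 0.370 and 0.327 without and 0.188, 0.239 and 0.349 with GM-CSF (p = 0.3 by the same exact permutation test).

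Defa24, an alpha-defensin gene with near copies, was detected unevenly. It measured 2.34, 0.444 and 1.05 FPKM without GM-CSF, 2.67 FPKM in GM-CSF replicate 3 and practically 0 in the other treated replicates (log2 difference -0.47 with an SE of 0.57, limma adjusted p = 0.614). The Paneth sum of 7.77, 6.13 and 7.48 FPKM without and 2.76, 3.02 and 6.66 FPKM with GM-CSF overlapped through that library. Reg3g and Reg3b encode C-type lectins that kill or bind bacteria at the mucosal surface and lie 92.8 kb apart on chromosome 6. Reg3g fell from 2.41, 2.46 and 1.79 FPKM to 1.41, 1.09 and 1.23 FPKM (log2 difference -0.51 with an SE of 0.12, limma adjusted p = 0.0243), a call that ended without untreated replicate 1 (adjusted p = 0.0771) or 2 (0.0819), or without treated replicate 2 (0.0699) or 3 (0.0670). The call of Reg3g also ended with quantile normalization. Reg3b measured 2.89, 4.18 and 2.19 FPKM without and 2.69, 1.95 and 1.499 FPKM with GM-CSF, with overlap (log2 difference -0.41 with an SE of 0.21, limma adjusted p = 0.230).

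Compared by class, only the pan-epithelial sum and Olfm4 had higher means with GM-CSF, and the pan-epithelial groups overlapped. The pan-epithelial sum was 129 ± 6.24 FPKM without and 139 ± 8.09 FPKM with GM-CSF (SD, n = 3 each), but without Cdh17 it was 106 ± 3.81 and 80.8 ± 8.82 FPKM, 0.764 times the untreated mean and without overlap. The ratio of group means was 0.638 for enterocyte, 0.608 for goblet, 0.582 for Paneth and 0.621 for the antimicrobial lectin genes. These ratios lie close together, and the spread of the small sums was wide: the goblet sum was 4.23 ± 1.15 without and 2.57 ± 0.884 FPKM with GM-CSF. No test was made on sums, since the genes were chosen with earlier results known, and differences between classes were not tested.

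**Figure D3:**
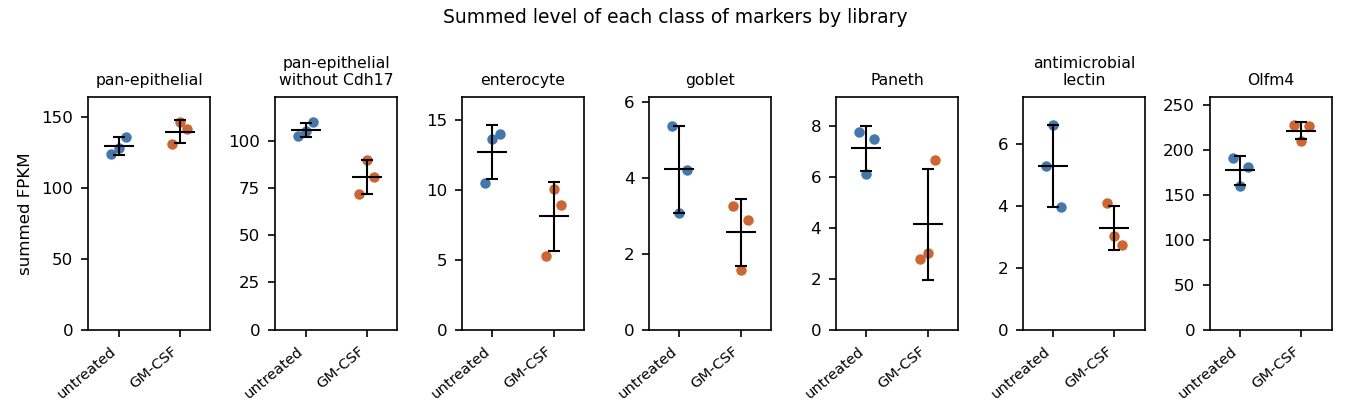
Summed FPKM of each class of markers in each library (points), with the group mean and SD (black bars), each panel on its own axis from 0. The pan-epithelial sum overlaps between groups with Cdh17 and separates without it (106 against 80.8 FPKM), and the goblet, Paneth and antimicrobial lectin sums overlap.

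The 9 markers under the filter (Elf3, Cdx1, Cdx2, Vil1, Apoa1, Sis, Alpi, Muc2 and Agr2) reached at most 1.27 FPKM in any library. All 9 had a lower mean with GM-CSF, and with no filter on low values none of them passed, at a smallest limma p of 0.0253 before adjustment (Apoa1). Only Guca2a and Defa24 were tested with a group mean under 1 FPKM, and neither passed. Precision followed level: the SE of the log2 difference had a median of 0.18 in the 15 tested markers under a mean of 5 FPKM and of 0.13 in the 7 above it.

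GM-CSF replicate 1 was the lowest of all 6 libraries in 11 of the 22 tested markers, and the lowest treated library in 6 of the 8 that fell. Without it 7 markers fell (Krt8, Krt18, Krt19, Lgals4, Lyz1, Reg3g and Cldn3) and Cdh17 rose. Leaving out each library in turn gave between 6 and 8 changed markers. The same fits called between 1515 and 1795 of all tested genes, against 2212 with all libraries. The lowest count came without untreated replicate 1, where Krt18, Krt19, Lgals4 and Lyz1 fell and Cdh17 and Olfm4 rose.

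A further 116 epithelial genes were listed from textbook knowledge. Rows were found for 114, of which 20 were tested: 1 rose, 8 fell and 11 did not pass, where 14.2% of all tested genes fell. The 20 had a median log2 fold change of -0.43. The membrane serine protease gene Prss8 (prostasin) averaged 8.83 ± 0.466 without and 3.51 ± 0.485 FPKM with GM-CSF (SD, n = 3 each) and fell (log2 difference -1.13, limma adjusted p = 0.000389), and its inhibitor gene Spint1 rose from 1.06 to 3.47 FPKM (log2 difference 1.11, limma adjusted p = 0.00212). Spint1 and Spint2 encode related Kunitz-type inhibitors, of which only Spint1 passed.

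By class, 39 other pan-epithelial genes had rows and 13 were tested, of which 5 fell and Spint1 rose. Of 31 other enterocyte genes, 2 were tested and neither passed. The bile acid binding protein gene Fabp6 averaged 2.27 and 0.814 FPKM. The hexose transporter gene Slc2a2 and the cytochrome gene Cyp3a11 were listed at 0 throughout. Of 12 other goblet genes only Spink4 was tested (4.02 and 1.68 FPKM, adjusted p = 0.196), with Galnt12 next in level at a mean of 0.474 FPKM. Of 12 other Paneth genes with rows, the lectin gene Itln1 averaged 32.5 ± 0.607 without and 25.9 ± 2.00 FPKM with GM-CSF (SD, n = 3 each) and fell (log2 difference -0.32, limma adjusted p = 0.0136), at a level far above that of Defa17 (1.04 and 1.03 FPKM). Among stem and transit amplifying genes, the Wnt target Axin2 fell from 14.8 to 11.1 FPKM, and Cd44, a hyaluronan receptor that leukocytes also carry, from 218.9 to 157.5 FPKM. Enteroendocrine genes summed to at most 0.375 FPKM in any library, with the hormone genes Cck, Gip and Sct at 0, and Sst and Chgb highest at means of 0.0330 and 0.0251 FPKM. Of the tuft cell genes, Trpm5, Pou2f3 and Il25 were at 0, Dclk1 averaged 0.00649 FPKM and Avil 0.676 FPKM.

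Markers of other cells moved in the same cultures, where 14.2% of all tested genes fell and 7.68% rose. Every B and plasma cell gene that was tested (6) fell, and the 7 genes of that list summed to between 32.3 and 40.1 FPKM without and between 17.01 and 18.4 FPKM with GM-CSF, led by Cd79a (9.92 and 5.86 FPKM) and Cd79b (8.65 and 4.27 FPKM). Of 5 tested T cell markers 4 fell, and the sum of 7 genes went from between 28.7 and 30.1 to between 15.8 and 18.6 FPKM, led by Cd3g (11.1 and 6.78 FPKM) and Cd3d (5.85 and 4.20 FPKM). No listed B, plasma or T cell gene was at 0 in all libraries. The rise of Cdh17 stood beside a fall of the B cell markers, and which cells held the Cdh17 RNA was not tested.

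The other lists were short and gave mixed results, to be read beside the same shares of all tested genes (14.2% fell and 7.68% rose). Of 5 tested macrophage and dendritic cell genes 3 fell, among them Lyz2, and the 9 genes summed to between 479.5 and 538 FPKM without and between 535 and 601 FPKM with GM-CSF, mostly Adgre1, which intestinal eosinophils also express (367.8 and 426.4 FPKM), and Cd68 (93.3 and 99.04 FPKM). The other 4 of the 9 genes, C1qa, C1qb, C1qc and Mrc1, averaged between 0.0461 and 0.243 FPKM over all libraries. Of 4 tested neutrophil genes 2 fell (6 genes, sums of 1354 to 1469 and 1048 to 1061 FPKM, almost all Retnlg at 1344 and 998.6 FPKM). The next gene, S100a9, averaged 48.2 and 36.9 FPKM, Ltf averaged 0.745 and 0.931 FPKM, and Camp was at 0 throughout. Which cells held the Retnlg RNA was not tested. Of 4 tested mast cell genes 2 fell, Gata2 (6.01 and 4.56 FPKM) and Kit (6.76 and 3.63 FPKM), with sums of 14.4 to 25.9 and 11.7 to 15.3 FPKM and the tryptase gene Tpsb2 at 0. Of 3 tested stromal and endothelial genes 1 rose and 1 fell (sums of 177 to 193 and 141 to 160.1 FPKM, led by Pecam1 at 154.8 and 116.5 and Acta2 at 24.2 and 24.7 FPKM). That sum was mostly Pecam1, and 5 of the 8 genes averaged under 1 FPKM in both groups. Among these were Col1a1 (0.00867 and 0.00625 FPKM) and Cdh5 (0.0170 and 0.0274 FPKM). No erythroid gene was tested; these summed to at most 2.00 FPKM in any library, with Hbb-b1 and Alas2 averaging 0.508 and 0.0562 FPKM. Of 9 tested eosinophil genes 2 rose and 4 fell, with the sum between 1698 and 1848 FPKM without and between 1777 and 1902 FPKM with GM-CSF and Csf2rb (600.4 and 1098 FPKM) and Alox15 (460.6 and 157.0 FPKM) the most abundant. The part of any of these cells in the values of the epithelial markers was not tested.

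**Figure D4:**
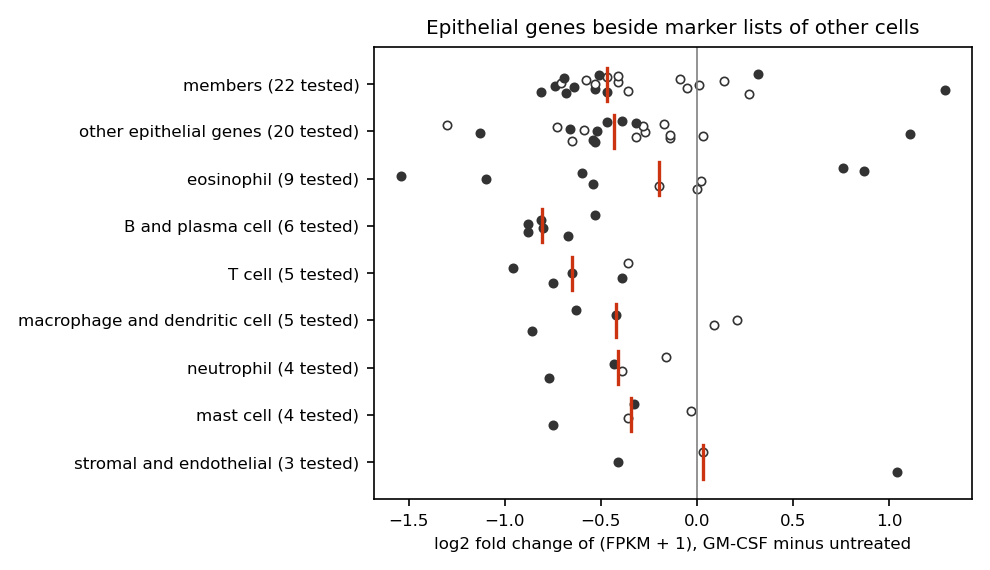
Log2 fold change of FPKM + 1 (GM-CSF minus untreated) of each tested gene (points, filled where the test was passed) for the 22 markers, 20 other epithelial genes and 7 marker lists of other cells, with the median of each list as a red bar. The epithelial medians (-0.47 and -0.43) lie near those of the macrophage and dendritic cell (-0.42) and neutrophil lists (-0.41). The T cell (-0.65) and B and plasma cell medians (-0.80) lie lower. Those of the mast cell (-0.34), eosinophil (-0.20) and stromal and endothelial lists (0.03) lie higher. Cdh17 and Spint1 lie farthest to the right in the epithelial rows.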

How the data were processed

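Polyadenylated RNA of 6 cultures was sequenced after Trizol extraction with a stranded TruSeq mRNA kit, per the labels' protocols. Per the submitters' processing notes, the tools were Cufflinks, TopHat, TopHat2 and bcl2fastq 1.8.4 and the build mm10; order and settings are not given in the sources used here. The authors deposited FPKM, coverage and length for 30374 RefSeq transcripts per library, per the file headers. Deposited coverage divided by FPKM gives the mapped gigabases of a library. No read counts were used. FPKM were summed per symbol, and those reaching 1 FPKM in the mean of all libraries were tested on log2(FPKM + 1) with limma 3.58.1 (R 4.3.3, empirical Bayes with a trend, two-sided, Benjamini-Hochberg adjustment over all tested genes), after a check on simulated data. The design has no replicate block. The members and lists were chosen with earlier results of these data known. All members are reported; from other epithelial lists the 3 largest calls, or else the 2 most abundant genes, and from cell type lists the 2 most abundant were named, with further names chosen after their values were seen. Of 209 list entries, 5 were not matched and 1 matched a synonym. Class sums and within-library ratios are descriptions; ratios carry an exact permutation test over libraries. Alternatives changed the pseudocount, filter, scaling, variance model, transcript choice, block or libraries. Some genes that this rule names are not reported here.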

Additional observations from a re-analysis of the deposited data

How the results depend on the processing

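The 18 alternatives changed few directions but several calls near the threshold. The number of all genes changed stayed within 1.5 times of 2212, from 1515 to 2289. Of 10 changed markers, 5 remained with a filter of 5 FPKM (3 lower), under which 7 markers were tested; with no filter 5 were lower. Leaving out 1 library gave 6 to 8 changed markers, of which 4 to 7 were lower and 1 to 2 higher, and 1515 to 1795 changed genes in all. With the replicate number as a block, 9 markers and 1996 genes changed; Cldn3 was lost (adjusted p = 0.0748). Same-numbered cultures had deviations from their group means that correlated at -0.0323, 0.0541 and -0.0173, so the numbers were not taken as pairs. Signs changed only for markers that did not pass: Muc13 with quantile normalization (0.03) and without single libraries (-0.17 to 0.17), Spint2 with array weights (-0.02) and without single libraries (-0.12 to 0.12), and Guca2a with array weights (0.05) and without single libraries (-0.34 to 0.14). The log2 ratio of summed FPKM of all markers was 0.18, 0.24 with median-of-ratios factors and -0.45 without Cdh17 and Olfm4; that of pan-epithelial markers was 0.11 and -0.39 without Cdh17. Both sets were chosen after seeing the data. Without single libraries the Paneth log2 ratio ranged from -1.30 to -0.56. The cause of these shifts was not tested. Depth was not varied; the median SE was 0.18 in tested markers under 5 FPKM and 0.13 above.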
